A study of Mus musculus with 6 samples.

Results

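The genes described here hold epithelial cells in the epithelial state: the Grainyhead-like factors Grhl1, Grhl2 and Grhl3, the Ovo-like zinc finger factors Ovol1 and Ovol2, the splicing regulators Esrp1 and Esrp2, and the epithelium-specific Ets factors Elf3 and Ehf. They were taken as a list of gene symbols, and all 9 were found among the 21959 genes used. The RNA came from primary cell lines grown from colon adenomas of mice, 3 lines per genotype. PID+ cells carried CDX2P-NLS-Cre;APC^Δ/+;ROSA26-PID, whereas PID- cells lacked the ROSA26-PID allele, so CDX2P-NLS-Cre and the deleted Apc allele were common to both. The Pak inhibitor domain (PID) was the autoinhibitory fragment of the kinase Pak1, fused to GST, mutated so that it no longer bound FMR1, and expressed together with eGFP from the Rosa26 locus after recombination by Cre, and Cre was driven by a Cdx2 promoter. The labels number the PID+ mice 4, 7 and 26 and the PID- mice 1, 2 and 3, and they call the PID- cells normal and untreated although they too came from tumors. The numbers of the PID- mice are not those that the paper gives its PID- lines. Mice of both cohorts were killed at 8 months of age, and an age for each line is not given in the sources used here.

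For each gene and condition there was a single pooled value, the FPKM (fragments per kilobase of transcript, scaled to the size of the library), calculated by the authors with CuffDiff after the 3 sets of reads of a condition had been merged. The labels name 3 mice per condition, whereas the methods speak of repeated sequencing runs. No value per mouse was given, so the spread between mice is unknown and no test was made. Each FPKM had CuffDiff's own confidence interval, which is quoted below as the deposited interval. A log2 change is the log2 ratio of PID+ over PID- after 1 was added to both FPKM, which understates the change of genes with a low FPKM.

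Grainyhead-like factors bind the regulatory regions of junction and adhesion genes, and Grhl2 and the repressor Zeb1 restrain each other in many epithelia. Ovol factors repress genes of the mesenchymal state, Zeb1 among them, and the Esrp proteins direct the epithelial pattern of exon choice in transcripts such as those of Cd44 and Fgfr2. Elf3 and Ehf belong to the Ets family and are expressed in gut and other epithelia, where Elf3 takes part in differentiation of the intestinal lining.

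Of the 9 genes, 8 had a higher value in PID+ than in PID- cells and 1, Ehf, had a lower one. Their median log2 change was 1.24, while the median over all genes was 0.00. Grhl2 and Elf3 were at least 3-fold higher in PID+ cells, which makes 2 of 9, and across all genes 1.04% were that much higher. When 0.1 was added in place of 1, the threshold was passed by 5 of 9 members and by 2.83% of all genes. In the other direction 0 of 9 were at least 3-fold lower, against 1.72% of all genes. With a threshold of 2-fold, 6 of 9 were higher, compared with 3.31% of all genes. The deposited intervals of PID+ and PID- cells overlapped for each of the 9 genes, and 0.729% of all genes had intervals that lay apart.

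A 3-fold change of FPKM + 1 can only be reached from an FPKM of 2 in a condition. This level was passed by 7 of the 9 genes, all but Grhl3 and Ovol1, and by 11035 genes in all, of which 2.08% were at least 3-fold higher and 3.42% at least 3-fold lower. The same limit holds for the lists below, and these shares are those to set beside their counts. Averaged over the conditions, 8 members reached an FPKM of 1, of which 7 were higher in PID+ cells, and of the 11480 genes at that level 49.4% were. In cultured bulk RNA such as this, fewer cells expressing a gene and less RNA per cell cannot be told apart.

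**Figure D1:**
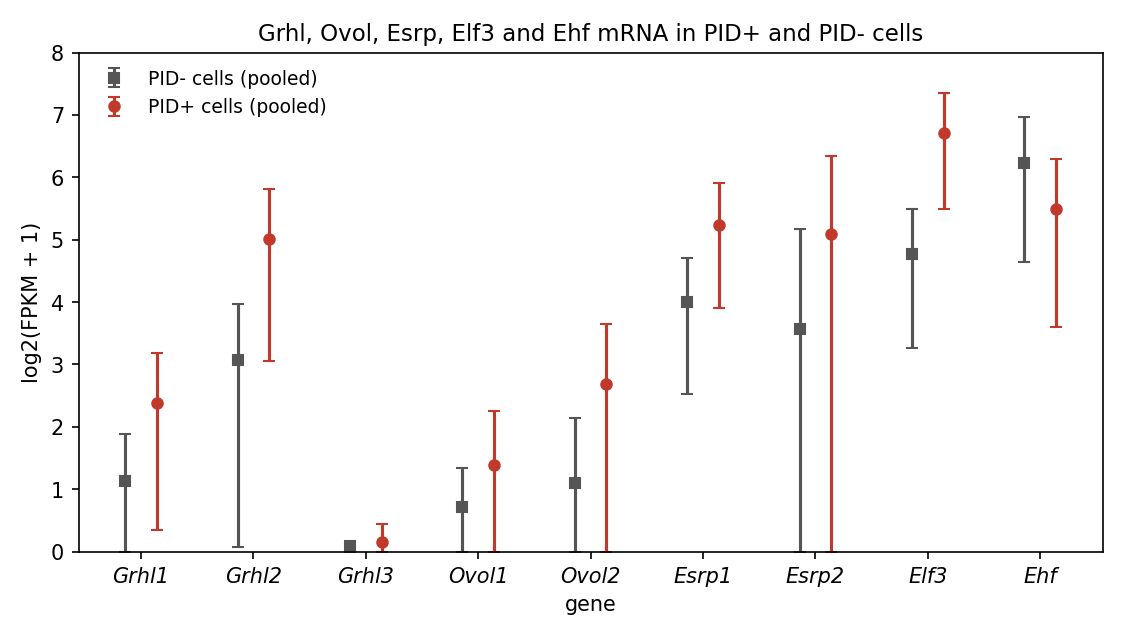
FPKM of the 9 genes on the scale log2(FPKM + 1), in PID- cells (grey squares) and PID+ cells (red circles), with 1 pooled value per gene and condition. Bars are the deposited confidence intervals, which overlap between the conditions for each gene, and Ehf is the gene whose PID- value lies above its PID+ value.

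Grhl2 (ENSMUSG00000022286.12, chromosome 15 of GRCm38 from 37233036 to 37363569) was the main Grainyhead-like gene of these cells. It reached 31.1 FPKM in PID+ cells (deposited interval 7.30 to 55.0) against 7.38 FPKM in PID- cells (0.0519 to 14.7), with a log2 change of 1.94. This placed it above 85.3% of genes in PID+ cells and above 61.9% in PID- cells, and its change ranked 114 among 21959 from the highest. Grhl2 made up 87.8% of the summed FPKM of the 3 Grhl genes in PID+ cells and 85.6% in PID- cells, so the make-up of the family differed little while its sum was 35.5 against 8.62.

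Grhl1 (ENSMUSG00000020656.12, chromosome 12 from 24572283 to 24617391) was less abundant, at 4.20 FPKM (0.274 to 8.13) in PID+ cells against 1.20 FPKM (0 to 2.70) in PID- cells. The log2 change of Grhl1 was 1.24, and Grhl2 exceeded Grhl1 in FPKM by 7.41 times in PID+ and by 6.16 times in PID- cells. Grhl3 (ENSMUSG00000037188.7, chromosome 4 from 135541888 to 135573630), which is best known from the epidermis and bladder lining, was close to silent in both. Its 0.118 FPKM (0 to 0.355) in PID+ cells stood against 0.0407 FPKM (0 to 0.124) in PID- cells, which corresponds to an estimated 21 and 10 reads. The log2 change of Grhl3 was 0.10, or 0.63 with a pseudocount of 0.1, so at this level the number depends on the pseudocount.

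Ovol2 (ENSMUSG00000037279.10, chromosome 2 from 144305175 to 144332146) reached 5.41 FPKM (0 to 11.5) in PID+ cells against 1.14 FPKM (0 to 3.43) in PID- cells. After adding 1, the ratio of PID+ over PID- was 2.99, just short of 3-fold, with a log2 change of 1.58. Of the 9 genes Ovol2 had the highest ratio of FPKM without a pseudocount, 4.74, ahead of Grhl2 with 4.22. Ovol1 (ENSMUSG00000024922.1, chromosome 19 from 5549136 to 5560646) reached 1.62 FPKM (0 to 3.77) against 0.633 FPKM (0 to 1.53), with a log2 change of 0.68. Ovol2 thus supplied 77.0% of the FPKM of both genes in PID+ cells and 64.3% in PID- cells. The deposited intervals of Ovol1 and Ovol2 reached down to 0 in either condition.

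The splicing regulators stood at similar levels to each other. Esrp1 (ENSMUSG00000040728.12, chromosome 4 from 11331933 to 11386783) reached 36.6 FPKM (14.0 to 59.3) in PID+ cells against 15.0 FPKM (4.79 to 25.2) in PID- cells, with a log2 change of 1.23. For Esrp2 (ENSMUSG00000084128.7, chromosome 8 from 106130319 to 106136974) these were 32.9 FPKM (0 to 80.3) against 10.9 FPKM (0 to 35.0), with a log2 change of 1.51. Esrp2 made up 47.3% of their summed FPKM in PID+ and 42.0% in PID- cells, so both genes were higher in PID+ cells in nearly constant proportion. Their sum was 69.5 in PID+ and 25.9 in PID- cells, and the wide intervals of Esrp2 make its value the less precise of the pair.

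Elf3 and Ehf, the epithelial Ets factors, differed in opposite directions. Elf3 (ENSMUSG00000003051.10, chromosome 1 from 135253575 to 135258568) reached 103 FPKM (43.8 to 163) in PID+ cells against 26.3 FPKM (8.61 to 44.0) in PID- cells, with a log2 change of 1.93. Its intervals met only at their ends, since the lower bound in PID+ cells lay just below the upper bound in PID- cells. Ehf (ENSMUSG00000012350.12, chromosome 2 from 103263433 to 103303278) reached 44.2 FPKM (11.2 to 77.3) in PID+ cells against 74.2 FPKM (23.9 to 124) in PID- cells, with a log2 change of -0.73. Elf3 accordingly accounted for 70.0% of the FPKM of both in PID+ cells and for 26.2% in PID- cells. The log2 changes of Elf3 and Ehf were 2.67 apart, and their sum, 148 in PID+ and 101 in PID- cells, differed by only 1.47 times. Whether the difference between Elf3 and Ehf exceeds the spread between mice was not tested.

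In PID+ cells the order of FPKM ran from Elf3 through Ehf, Esrp1, Esrp2, Grhl2, Ovol2, Grhl1 and Ovol1 to Grhl3. In PID- cells Ehf came before Elf3, and Grhl1 came before Ovol2, with the rest in the same order. Neighbours in either order had overlapping deposited intervals, so the order within each condition is that of the point values. Ehf was the most abundant of the 9 genes in PID- cells and lay above 94.7% of all genes there, and Elf3 lay above 96.3% in PID+ cells.

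Relatives of these genes, taken as lists, showed smaller changes. The CP2 branch of the Grainyhead family had a median log2 change of 0.03 over 3 genes. Its most abundant gene, Ubp1, reached 28.0 FPKM in PID+ against 27.3 FPKM in PID- cells, while Tfcp2l1 had 4.10 and 2.78 and Tfcp2 had 3.69 and 5.25. Ovol3 was near 0, with 0.0268 and 0.0390. The other epithelium-specific Ets factors were also near 0, Elf5 with 0.0144 and 0.0136 and Spdef with 0.0221 and 0.0462, so Elf3 and Ehf were the members of that group present in these cells.

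Of 19 further Ets factors, 0 were at least 3-fold higher or lower, against 1.04% and 1.72% of all genes. Erg, Fli1, Fev, Spi1, Spib and Etv1 stayed below an FPKM of 2 in both conditions and could not reach 3-fold. Of the 19, 7 were higher and 9 lower. Their median log2 change was 0.00, or -0.13 over those that averaged 1 FPKM or more. The most abundant were Ets2 at 125 FPKM in PID+ against 102 FPKM in PID- cells, Elk3 with 52.4 and 67.5, and Etv4 with 35.7 and 28.4. The change of Elf3, 1.93, lay above that of each of the 19.

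The repressors of the epithelial state, which Ovol and Grainyhead-like factors oppose, were mostly lower in PID+ cells: 6 of 7 were lower, 4 of them at least 3-fold, and the median log2 change was -1.99. Those 4 were Zeb1, Zeb2, Snai2 and Twist2, and across all genes 1.72% were at least 3-fold lower. Of the 7, only Zeb1 and Zeb2 had deposited intervals apart, while those of Snai2 and Twist2 overlapped. For Twist2 0.0882 FPKM in PID+ stood against 3.33 FPKM in PID- cells. Twist1 had the highest mean of both conditions in the list, with 12.8 and 22.2. The exception was Snai3, with 5.54 and 1.13, a log2 change of 1.62 and deposited intervals as wide as 0 to 91.4 and 0 to 51.4.

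Grhl2 and Ovol2 lay above Zeb1 in PID+ cells and below it in PID- cells. The deposited intervals of Grhl2 and Zeb1 lay apart in PID+ cells and overlapped in PID- cells. Those of Ovol2 and Zeb1 overlapped in both conditions, so where intervals overlap the order is that of the point values. The FPKM of Grhl2 was 77.1 times that of Zeb1 in PID+ cells and 0.789 times that of Zeb1 in PID- cells. For Ovol2 the ratio to Zeb1 was 13.4 in PID+ cells and 0.122 in PID- cells, so Zeb1 was the more abundant of the pair only in PID- cells. Grhl2 likewise stood at 37.9 times Zeb2 in PID+ and 0.322 times Zeb2 in PID- cells. Esrp1 exceeded Zeb1 in both, by 90.7 times in PID+ and 1.60 times in PID- cells. Zeb2, Snai2 and Twist2 likewise lay below Ovol2 in PID+ cells and above it in PID- cells. Twist1 exceeded Ovol2 in both conditions, Snai1 lay below it in both with 0.438 and 0.784, and Snai3 was close to Ovol2 in both, at 5.54 against 5.41 FPKM in PID+ and 1.13 against 1.14 FPKM in PID- cells.

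Genes known as direct targets of Grainyhead-like factors were higher in PID+ cells for 11 of 13, with 6 at least 3-fold higher, 0 at least 3-fold lower and a median log2 change of 1.12. At least 3-fold higher were 1.04% of all genes and 2.08% of those with an FPKM of at least 2 in a condition. Of genes that averaged 1 FPKM or more, 49.4% were higher at all. The 6 were Lsr (log2 change 2.12), a tricellular junction protein, St14 (1.83), a membrane protease, its inhibitor Spint1 (1.63), the crosslinking enzyme Tgm1 (1.74), the trafficking GTPase Rab25 (1.72) and the adhesion molecule Epcam (1.68). Lsr reached 153 FPKM (68.6 to 238) in PID+ against 34.5 FPKM (11.5 to 57.5) in PID- cells, and St14 had 122 (55.2 to 190) and 33.7 (13.9 to 53.5). Lsr and St14 were the 2 of the 13 whose deposited intervals lay apart, unlike those of Grhl2 itself. The claudins Cldn4, with 432 and 217, and Cldn3, with 266 and 173, were among the most abundant. Arhgef19 and Lmo4, named after their values were seen, were the 2 that were lower, with log2 changes of -1.24 and -0.05. Dsg1a was counted among the 11, with an estimated 1 read in PID+ and 0 in PID- cells.

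For 9 genes whose transcripts the Esrp proteins splice, the median log2 change was 0.08, below those of Esrp1 and Esrp2, and 0 were at least 3-fold higher or lower. Over those of the 9 that averaged 1 FPKM or more, the median was 0.37. Cd44 reached 488 FPKM in PID+ against 231 FPKM in PID- cells, and Ctnnd1 had 128 and 121. Fgfr2, named after its values were seen, was near 0 in both, with 0.0935 and 0.134. These are sums over the transcripts of a gene, so exon choice, which is what Esrp1 and Esrp2 control, cannot be read from them.

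Of 13 other splicing factors that act on the same or the mesenchymal exons, 12 were matched in the table, all but Qki, and their median log2 change was 0.12. The most abundant, Hnrnpa1, reached 429 FPKM in PID+ against 419 FPKM in PID- cells, and the next by the mean of both conditions were Hnrnph1 with 324 and 229 and Srsf1 with 217 and 197. Esrp1 and Esrp2, at 1.23 and 1.51, thus lay above each of the 12.

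Of 5 genes often given as targets of Ovol factors or Elf3, Zeb1 and Vim were lower in PID+ cells by at least 3-fold. Zeb1 is also in the list of repressors above, and Vim in that of fibroblast markers below. Vim reached 19.1 FPKM in PID+ against 997 FPKM in PID- cells, a log2 change of -5.63. Myc, with 78.8 and 87.5, and Id2, with 89.9 and 72.0, differed little. Tgfbr2, named after its values were seen, had 61.1 and 61.0. The median over the 5 genes was -0.15.

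Of 20 other transcription factors of epithelia, 8 were higher and 11 lower in PID+ cells, and the median log2 change was -0.02, against 1.24 for the 9 genes of the Grhl, Ovol, Esrp and Elf3 list. Over those of the 20 that averaged 1 FPKM or more, the median was -0.59. The single one past 3-fold was Cdx2, lower in PID+ cells at 0.542 against 8.04 FPKM. Klf5 had 45.6 and 58.6, and Foxa1 had 36.5 and 34.3.

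**Figure D2:**
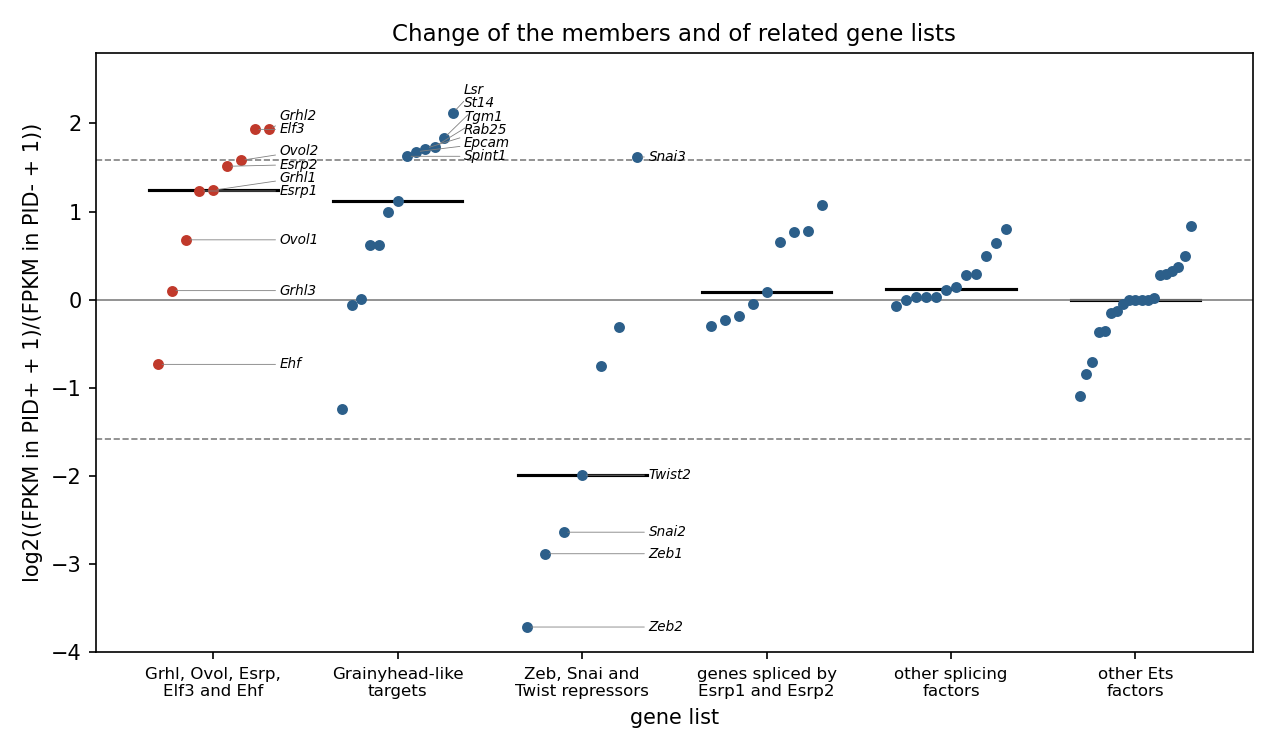
Log2 change (PID+ over PID-, after adding 1 to both FPKM) of each gene in the Grhl, Ovol, Esrp, Elf3 and Ehf list (red) and in 5 related lists (blue), with the median of each list as a black bar. Dashed lines mark 3-fold. The red points have a median of 1.24 and the Zeb, Snai and Twist repressors one of -1.99.

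The labelled cell type was set against marker lists. Of 15 markers of colon epithelium, 9 were higher and 5 lower in PID+ cells, with Cdx2, Cdh17 and Car1 at least 3-fold lower, and their median log2 change was 0.07. They summed to 8852 FPKM in PID+ against 4976 FPKM in PID- cells, most of it from Krt8, Krt18 and Krt19. Krt19 had the highest mean of both conditions, with 2469 and 2073. Cdx1 was listed at 0 in both, and Vil1 and Slc26a3 were below an FPKM of 1, whereas Krt20 had 158 and 73.5, and Cdh17 had 1.67 and 25.9. Epcam and Cdh1 also stand in the list of Grainyhead-like targets above. Krt8, Krt18, Krt20, Epcam and Cdh1, which moved with the Grhl, Ovol, Esrp and Elf3 genes, had log2 changes of 1.06, 1.24, 1.10, 1.68 and 1.12. Ehf went with none of these 5 and was lower in PID+ cells, as were Cdx2, Cdh17, Car1, Lgals4 and Vill.

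Of 11 markers of fibroblasts or mesenchyme, 10 were lower in PID+ cells and 0 were higher, with 5 at least 3-fold lower. They summed to 26.6 FPKM in PID+ against 1041 FPKM in PID- cells, most of it from Vim, and 7.47 and 44.0 without Vim. Col1a1 had 2.32 and 11.9, Col1a2 had 0.0654 and 11.9 with deposited intervals apart, and Col3a1 had 0.339 and 6.35. Lum was listed at 0 in both conditions, Dcn at 0 and 2.39, and Pdgfra had an FPKM of 0.188 and 0.243. The part of such cells, and of the epithelial markers above, in the lower FPKM of the Grhl, Ovol, Esrp and Elf3 genes in PID- cells was not tested.

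Over 9 leukocyte markers the sum was 51.0 in PID+ and 45.7 in PID- cells, most of it from Cd14 and Cd68, and Cd3e was listed at 0 in both and Ptprc at 0.0264 and 0.00811. The 7 mast cell and basophil markers summed to 83.2 and 10.01, nearly all of it from Mcpt8, with 82.5 and 9.60 and a log2 change of 2.98, while Fcer1a, Ms4a2, Cpa3 and Tpsb2 were listed at 0 in both. Endothelial markers summed to 3.77 and 1.12 over 5 genes, led by Kdr. Squamous and basal markers summed to 79.4 and 55.7 over 9 genes, led by Krt6a with 67.4 and 49.4, and 6 were higher and 3 lower in PID+ cells. Krt14, Lor and Dsg3 had log2 changes of 1.54, 1.25 and 1.11, and Krt1, Trp63 and Krt10 had -0.75, -0.20 and -0.04. The part of these lists in the results was not tested.

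The genes beside the members differed less on the whole. The 18 protein-coding neighbours, 1 on each side of a member, had a median log2 change of -0.13. The lowest value was -0.99 (Klf11, beside Grhl1) and the highest 0.76 (Ap5b1, beside Ovol1). Of the 18, 0 were at least 3-fold higher or lower, against 1.04% and 1.72% of all genes. Ncald, Stpg1, 1700020D05Rik, Gpr37l1 and Elf5 stayed below an FPKM of 2 in both conditions and could not reach 3-fold. Ncald, 2606 bases from Grhl2, had 0.121 FPKM in PID+ against 0.905 FPKM in PID- cells, a log2 change of -0.77. Ap5b1, and Stpg1 beside Grhl3 with 0.17, lay slightly above Ovol1 and Grhl3 themselves. Rnpep, 4144 bases from Elf3, reached 65.1 FPKM in PID+ against 55.6 FPKM in PID- cells. Elf5, the Ets gene next to Ehf, was near 0. Nfatc3, whose end overlaps that of Esrp2, had a log2 change of -0.30, opposite in sign to Esrp2, and reads in the overlap cannot be assigned to either.

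The members were also set against the rest of their chromosomes. The median log2 change over the 560 genes of chromosome 4 that averaged 5 FPKM or more was -0.31, and Esrp1 lay 1.55 above it. For chromosome 15 the median was 0.19, and Grhl2 lay 1.75 above it. The kit used does not mark strand, so reads of the antisense genes Gm16136 and Gm16137 at Grhl2, 1700108N11Rik at Ovol2 and Gm26642 at Elf3 cannot be told from those of the members. Ovol1 and Esrp1 also overlap noncoding genes, as do Esrp2 (1810019D21Rik) and Grhl2 (the pseudogene Gm16138), whereas Grhl1, Grhl3 and Ehf overlap none.

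The scale between the conditions bears on all of these values. Gapdh reached 2570.3 FPKM in PID+ against 1666 FPKM in PID- cells. Scaled to equal Gapdh, the median of the 11480 genes that averaged 1 FPKM or more moved by -0.56, and the genes at least 3-fold higher and lower numbered 76 and 662 in place of 229 and 377. On that scale 8 of 9 members were higher, 0 were at least 3-fold higher, and their median was 0.76, which is 1.33 above that of the 11480 genes, compared with 1.25 as deposited. None of the Grainyhead-like targets, and not Snai3, was at least 3-fold higher on the Gapdh scale, and the medians of the CP2 genes, the genes spliced by the Esrp proteins and the other splicing factors turned negative.

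RefSeq promoter sequences (GRCm38.p6, 250 bases before to 50 after the start) were matched for 4 of the 9 genes, Elf3, Ovol2, Grhl1 and Grhl3, in 5 entries. Both strands were searched for CACCTG, the E-box bound by Zeb and Snail repressors, for AACCGGTT (Grainyhead-like), CCGTTA (Ovo) and CCGGAAGT (Ets), of which the second and the last have the letters CCGG in common. The E-box CACCTG was present in the promoters of Elf3 and Grhl3 and in 20.2% of all 32851 promoters. The other motifs occurred in 0.146%, 2.76% and 3.89% of all promoters and in 0 of the 5 entries. A match of letters is a description and shows no binding.

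The Elf3 promoter is shown because Elf3 had the highest FPKM of the 9 genes in PID+ cells and its promoter holds the E-box. The 154 bases lie at chr1:135258569-135258722 on the minus strand, upstream of both the RefSeq and the Gencode start of Elf3, with the E-box in capitals, its first base at position -140 from the RefSeq start. For Grhl3, which was near 0, 30 bases at chr4:135573634-135573663 on the minus strand are given for comparison, with 1 of its 2 matches in capitals at position -19 from the RefSeq start, and the other match, not shown, begins at position 9 after it.
Elf3: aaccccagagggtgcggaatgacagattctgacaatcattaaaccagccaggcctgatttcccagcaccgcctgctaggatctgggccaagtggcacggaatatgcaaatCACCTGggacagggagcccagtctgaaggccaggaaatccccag
Grhl3: agttaacatctgCACCTGctgtggtctagc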

How the data were processed

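Poly(A) RNA libraries of 3 PID+ and 3 PID- samples were made with a kit that does not mark strand. The submitters' processing notes name cutadapt, FastQC, Bowtie2, TopHat and GRCm38.p3, and the methods add an annotation of protein-coding genes and CuffDiff with compatible hits normalization. The authors deposited 1 FPKM per gene and condition with the bounds of its interval, 43932 rows for 21966 genes, and 7 genes with a status other than OK were left out here. Following the treatments in the labels, treated stands for PID+ and untreated for PID-. The deposited standard deviation was not used. Symbols matched 21734 identifiers, and positions came from Gencode M21.

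The 9 genes and all lists were chosen with earlier results of these data known. Some genes stand in more than 1 list, among them Zeb1, Vim, Epcam, Cdh1 and Cdx2, so the lists are not independent of each other. A pseudocount of 1 and a threshold of 3-fold were used. The genes named are the 9 members, their protein-coding neighbours, Gapdh, and of each list the genes at least 3-fold different with an FPKM of at least 2 in a condition and the 3 with the highest mean FPKM, some of which are not reported here. The marker genes named and other genes were chosen after their values were seen.

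To estimate what 1 read was worth, genes with a single transcript were used, as FPKM times the transcript length less 180 bases, where 91.8% of 674 low values in PID+ and 91.4% of 650 in PID- cells lay within 0.1 of a whole number. A read was worth 1.36 times as much in PID+ as in PID- cells. Reads of genes with several transcripts are approximate, and the total depth is unknown. The planned comparison of protein sequences was not made.

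The calculation was tested on simulated data, with planted changes well past the threshold and little noise, among genes that averaged 5 FPKM or more. Grhl1, Grhl3, Ovol1 and Ovol2 averaged less. The simulation checks only that the calls are computed as stated, and it does not measure how reliable they are in these data. Alternatives were a pseudocount of 0.1, equal total, upper quartile and Gapdh FPKM, chromosome medians subtracted, and a mean FPKM of at least 1. Python 3.11.15, numpy 2.4.6, pandas 2.3.3 and matplotlib 3.10.9 were used.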

Additional observations from a re-analysis of the deposited data

How the results depend on the processing

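The 9 members kept their direction under each scaling and pseudocount, and so did the 8 with a mean FPKM of at least 1, which leaves out Grhl3, with medians from 0.76 (equal Gapdh) to 1.59 (pseudocount 0.1). The number at least 3-fold higher, 2 as reported, was 5 with a pseudocount of 0.1 and 0 with equal Gapdh. It was 6 at a threshold of 2-fold, and 0 members had deposited intervals apart.

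With equal Gapdh, the medians of the CP2 list, the genes spliced by the Esrp proteins and the other splicing factors turned to -0.57, -0.10 and -0.50, by about the shift of all genes for the first and the last. On that scale 0 Grainyhead-like targets and 0 repressors were at least 3-fold higher, and 1 target, 1 other Ets factor and 3 other epithelial factors at least 3-fold lower. With equal total FPKM, the CP2 median was -0.068, that of the genes spliced by the Esrp proteins -0.021, and 0 repressors were at least 3-fold higher. With chromosome medians subtracted, the spliced genes had a median of -0.00085, Ovol3 had -0.26 and 3 targets were at least 3-fold higher in place of 6. With a pseudocount of 0.1, 1 other epithelial factor was at least 3-fold higher and 2 lower. The log2 change of Grhl3 moved to 0.63, above the upper bound of 0.44 that its interval has with a pseudocount of 1. That bound was not recalculated for 0.1, so 0.63 is not shown to lie outside the interval. The cause of these changes was not tested.

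The other 253 values moved within the deposited intervals (for a list median, the medians of its genes' bounds, which are wide) or within 1.5 times the count. Among these, a mean FPKM of at least 1 took the median of the other epithelial factors from -0.02 to -0.59 and that of the spliced genes from 0.08 to 0.37. A pseudocount of 0.1 took the median of the repressors from -1.99 to -3.39 and that of the Grainyhead-like targets from 1.12 to 1.66. Equal Gapdh took the median of the Grainyhead-like targets to 0.50 and that of the Ovol and Elf3 targets from -0.15 to -0.77. Leaving out each replicate in turn was not run, since the values are pooled. No paired analysis was possible because the table holds no value per sample.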
